A study of Mus musculus with 8 samples.

Results

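The genes Grem1, Nog, Chrd, Fst, Smoc1, Smoc2, Twsg1 and Bmper encode secreted proteins that bind or modulate BMPs outside the cell, and the SMAD4 peaks around these 8 of 22208 protein-coding mouse genes are described here. The genes were chosen by what their products do and not by a rule on their peaks, although earlier results of these data were known. A peak was assigned to a gene when its centre lay within 100 kb, and separately within 500 kb, of the annotated 5′ end of the gene on mouse build mm9. A total of 8 peaks of the E9.5 list and 26 peaks of the E10.5 list lay within the larger distance.

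SMAD4 binding was mapped by chromatin immunoprecipitation and sequencing (ChIP-seq) in NMRI mouse embryos that carry a 3xFLAG epitope tag on both copies of the endogenous Smad4 gene. All ChIP and input samples share this allele, and the M2 anti-FLAG antibody was used. The series holds 8 samples, with 2 ChIP samples and 2 input samples at each of the stages E9.5 and E10.5. About 80 embryos were pooled per E9.5 replicate, dated to E9.75 in the protocol, and forelimb buds with attached trunk were taken. About 100 embryos were pooled per E10.5 replicate, and fore- and hindlimb buds were taken. Stage and tissue therefore cannot be told apart. The labels disagree in part, since the source field gives forelimb buds throughout while the tissue field adds hindlimb buds at E10.5.

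BMPs are secreted ligands whose receptors phosphorylate R-SMADs, which enter the nucleus with SMAD4 and bind target genes. Antagonists such as gremlin 1, noggin and chordin bind BMPs and keep them from their receptors. In the limb bud, gremlin 1 produced by the mesenchyme lowers BMP activity and thereby links SHH signalling in the posterior mesenchyme with FGF signalling in the apical ectodermal ridge.

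The E9.5 list holds 2073 peaks and the E10.5 list 6185, each made from both replicates of its stage. No value has an error between replicates, the depth of the libraries is unknown, and no test between the stages was possible. The score of each peak is the authors' own and has no stated unit, so it served to rank peaks within a list (rank 1 is the highest score), and its level was not compared between the lists. Binding below the calling threshold would leave no peak, and the E10.5 list is the longer one, so more genes have a peak in it.

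Within 100 kb, Grem1, Nog, Fst and Bmper had an E9.5 peak, which is 4 of 8 members, while 20.5% of all protein-coding genes had one. At E10.5, Grem1, Nog, Chrd, Fst, Smoc1 and Smoc2 had a peak, or 6 of 8 members compared with 52.9% of all genes. Grem1, Nog and Fst had peaks of both stages, 3 of 8 members compared with 14.6% of all genes. Bmper was the only member with E9.5 peaks alone, Chrd, Smoc1 and Smoc2 had E10.5 peaks alone, and Twsg1 had none at this distance. With 8 genes, these counts are a description of the members. Within 500 kb, 5 members had an E9.5 peak (60.6% of all genes), 7 had an E10.5 peak (82.8%) and 4 had both (57.3%).

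The peaks within 100 kb of a member numbered 5 at E9.5 and 10 at E10.5. All 5 E9.5 peaks had the member as their nearest protein-coding gene by 5′ end, whereas 4 of the 10 E10.5 peaks did. An overlap of at least 1 bp with the other list was found for 2 of the 5 E9.5 peaks, compared with 18.7% of the whole E9.5 list. The same held for 2 of the 10 E10.5 peaks, compared with 6.26% of that list. These form a pair at Grem1 and a pair at Nog. Nearest inside the limit of 100 kb were the E10.5 peaks at -82.7 kb and -75.8 kb from Smoc2, where negative distances lie upstream. Just outside it were the E10.5 peaks at 104 kb from Grem1 and at -107 kb from Nog.

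**Figure D1:**
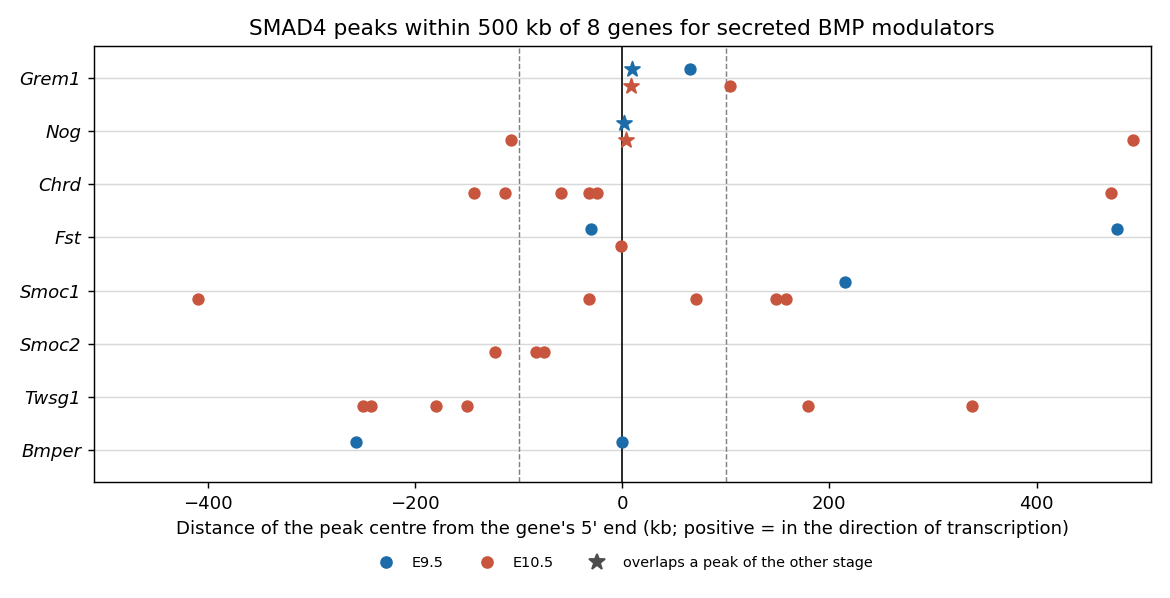
SMAD4 peaks within 500 kb of the 5′ end of each member. The x axis gives the distance of the peak centre in kb, points are single peaks of the E9.5 (blue) or E10.5 (red) list, stars mark peaks that overlap a peak of the other stage, and dashed lines stand at 100 kb. The 2 overlapping pairs lie at Grem1 and Nog, and the 6 peaks of Twsg1 all lie outside the dashed lines.

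Grem1 (ENSMUSG00000074934.3, chr2:113586321-113598803, minus strand) held the best-ranked peaks of all members at both stages. The E9.5 peak chr2:113588861-113590602 had a score of 2076 and rank 3 of 2073. The E10.5 peak chr2:113588921-113590628 had a score of 226 and rank 25 of 6185, which places it among the best 0.404% of its list. Both lie inside the last exon of the gene and the adjoining intron, centred 9.07 kb and 9.03 kb downstream of the 5′ end. Neither peak reaches the promoter. They share 1682 bp, which is 96.6% of the E9.5 peak and 98.5% of the E10.5 peak, and their starts differ by 60 bp and their ends by 26 bp. The shared length is 95.1% of the length that either peak covers, and 43 of the 390 overlapping pairs of the lists reach this value or more (median 84.5%). By summed ranks the Grem1 pair is at position 8 of 390.

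The pair covers all 552 bp of the coding sequence of Grem1 together with 899 bp (E9.5) and 839 bp (E10.5) of its 3439 bp 3′ untranslated region (UTR). The centre of the E9.5 peak falls into the 3′ UTR and that of the E10.5 peak into the coding exon, 43 bp apart. Of the 2073 E9.5 peaks 24 were centred in a 3′ UTR, and the Grem1 peak had the highest score among them, while their median rank was 1277.

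The SMAD box CAGAC, the short sequence that the DNA-binding domain of SMAD4 recognises, occurs 5 times in the stretch common to the Grem1 pair. It occurs in the 3′ UTR, in the coding exon and in the intron. Both matches in the coding exon read CAGACC. The nearest match lies 278 bp from the centre of the E9.5 peak and 235 bp from that of the E10.5 peak, so the 300 bp around either centre hold none. The 5 matches are shown because this is the region that both lists rank highest among the members. Each is written from mm9 with 12 bases to either side, on the strand that reads CAGAC, which stands in capitals.
Grem1 3′ UTR, minus strand, chr2:113589029-113589057: tttaaaagaaccCAGACacacagaggaaa
Grem1 3′ UTR, plus strand, chr2:113589140-113589168: atttcactggccCAGACtggtcctcagcc
Grem1 coding exon, minus strand, chr2:113589995-113590023: cagcccctgaagCAGACcatccacgagga
Grem1 coding exon, minus strand, chr2:113590160-113590188: aatgactctgagCAGACccagtccccacc
Grem1 intron, plus strand, chr2:113590329-113590357: gagagggggacaCAGACaataagaaagtt

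With 2.87 matches per kb, the E9.5 peak of the Grem1 pair is close to the median of its list, which is 2.87 as well. The E10.5 peak has 2.93 per kb, compared with a median of 2.74. GC content of the central 300 bp was 52.7% in both peaks, and the medians of the lists were 53% and 55%. GGCGCC, a GC-rich sequence bound by SMAD complexes, has no match in either peak. The density of CAGAC over the whole peaks is thus near the middle of both lists, while their central 300 bp hold 0 matches.

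The remaining peaks of the Grem1 region lie in introns of Fmn1 (chr2:113167893-113556924, plus strand), the neighbouring gene that is known to house limb bud enhancers of Grem1. At E9.5, chr2:113531633-113534179 (2547 bp, score 58.4, rank 924) is centred 65.9 kb downstream of the Grem1 5′ end and 24 kb before the 3′ end of Fmn1. At E10.5, chr2:113493154-113496651 (3498 bp, score 82.2, rank 1066) is centred 104 kb downstream and 62 kb before the 3′ end of Fmn1. These do not overlap and are 35 kb apart, so a different stretch of Fmn1 carries a peak in each list. Although both lie inside Fmn1, the 5′ end of Grem1 is the nearest one of any protein-coding gene. The Fmn1 peak of E10.5 holds 7 CAGAC matches, or 2 per kb (list median 2.74), and 0 in its central 300 bp. The Fmn1 peak of E9.5 is poor in GC (41.3% in the central 300 bp, and 1.5% of its list are as low or lower). It holds 3 CAGAC matches, or 1.18 per kb (list median 2.87). Of these, 1 lies 84 bp from its centre, and 60.6% of the E9.5 list hold a match in the central 300 bp.
Fmn1 intron, E9.5 peak, minus strand, chr2:113532808-113532836: atgactacatgtCAGACcatgacatattg

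No other peak lies within 500 kb of Grem1 at either stage. The interval upstream of Grem1 holds Scg5, Arhgap11a, Gjd2, Actc1, Aqr and Zfp770 and contained no peak. The first peak in that direction is at -3348 kb at E9.5 and at -2289 kb at E10.5. Downstream, the next peaks are at 992 kb (E9.5) and 542 kb (E10.5). Grem1 has 8 other protein-coding genes within 500 kb, and the median over all genes is 15. With 2 peaks each within 500 kb, Grem1 stands above the median gene at E9.5 (1 peak) and below it at E10.5 (3 peaks).

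**Figure D2:**
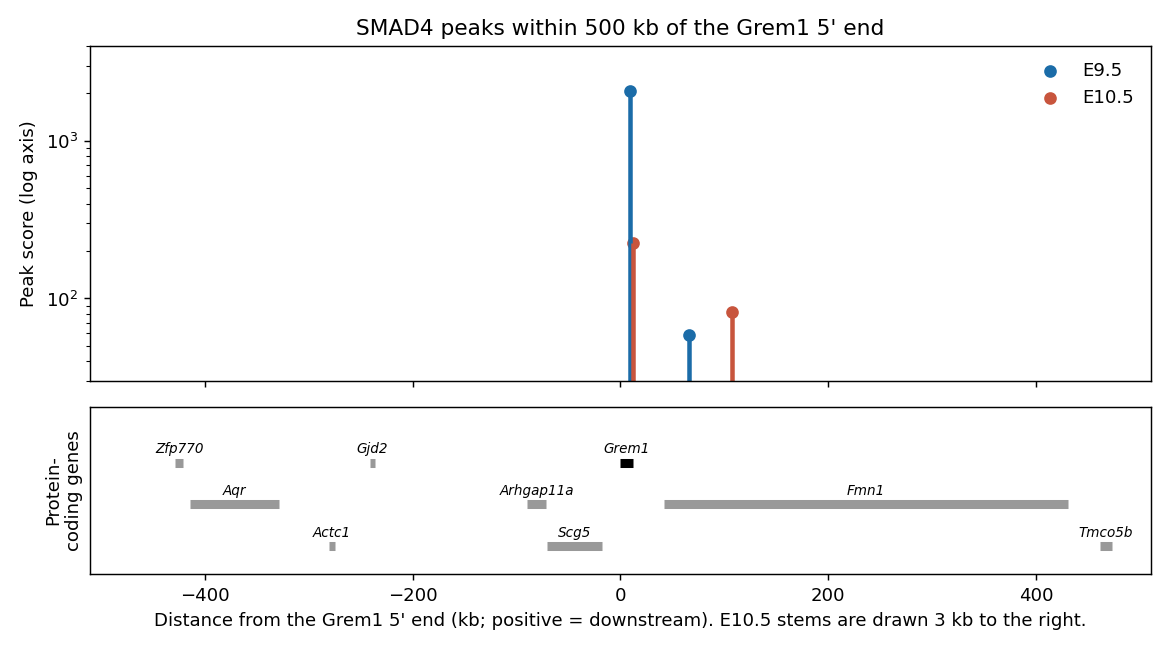
SMAD4 peaks within 500 kb of the Grem1 5′ end. Stems give the score of each peak (log axis) at E9.5 (blue) and E10.5 (red, drawn 3 kb to the right), grey bars are protein-coding genes, and Grem1 is black. The peaks with scores of 2076 and 226 stand on Grem1, those with scores of 58.4 and 82.2 inside Fmn1, and the upstream side is empty. Scores are not on a common scale between the lists.

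Nog (ENSMUSG00000048616.3, chr11:89161952-89163873, minus strand) encodes noggin, an antagonist with high affinity for BMPs. Its E9.5 peak chr11:89159122-89165460 contains the whole gene of 1.92 kb, promoter included, and extends beyond it on either side. With 6339 bp it is among the 9 widest peaks of the E9.5 list, but its score was 54.4 and its rank 1174. The E10.5 peak chr11:89158525-89161915 (3391 bp, score 57.1, rank 3603) ends 37 bp short of the gene and so lies downstream of it. The pair shares 2794 bp, or 44.1% of the E9.5 peak and 82.4% of its E10.5 counterpart, and the centres are 2071 bp apart. At 40.3% of the length that either peak covers, the overlap is lower than in most pairs (6.92% of the 390 pairs have as little or less). By summed ranks the pair is at position 322 of 390. The gene itself was thus part of a peak at E9.5 and not at E10.5. Within 500 kb there were 2 more E10.5 peaks, at -107 kb (chr11:89270033-89271713, score 53.0, rank 4468) and at 493 kb (chr11:88669199-88671617, score 46.7, rank 5495), both nearer to another gene.

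Over the whole Nog peaks of the pair, CAGAC occurred 2.21 times per kb at E9.5 (list median 2.87) and 2.65 times at E10.5 (list median 2.74). The 300 bp around either centre held none, and the nearest match lay 315 bp (E9.5) and 351 bp (E10.5) from it. GC content of the central 300 bp was 34.7% at E9.5, and 0.386% of that list are as low or lower. At E10.5 it was 45.7%, with 5.85% of the list as low or lower. The stretch common to the pair contains CAGAC 8 times. Of these matches, 3 follow each other on the minus strand with starts exactly 16 bases apart. They are printed because they lie in the DNA that both stages have in common, and the runs overlap. A further match lies at the 5′ end of Nog itself, inside the E9.5 peak only.
Nog downstream, minus strand, chr11:89159758-89159786: ggacccgcgctgCAGACgtgacgggctac
Nog downstream, minus strand, chr11:89159742-89159770: cgtgacgggctaCAGACcaccgcactgac
Nog downstream, minus strand, chr11:89159726-89159754: ccaccgcactgaCAGACccggagggctgg
Nog 5′ end, minus strand, chr11:89163858-89163886: gaccctgcgagaCAGACaaaccggtgcca

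Fst (ENSMUSG00000021765.6, chr13:115242470-115249159, minus strand) encodes follistatin, which sequesters activins and also binds some BMPs. At E10.5, the peak chr13:115248527-115251102 (2576 bp, score 192, rank 50 of 6185) spans the 5′ end of the gene, with its centre at -0.655 kb. It covers 365 bp of 5′ UTR and 85 bp of coding sequence. No E9.5 peak overlaps it. The E9.5 peak of Fst, chr13:115278397-115279489 (1093 bp, score 41.0, rank 1878 of 2073), is intergenic at -29.8 kb and 27.3 kb from the E10.5 peak, and has a place in the lowest-scored part of its list. Fst therefore counts among the members with peaks of both stages although no position carries a peak in both. A second E9.5 peak at 478 kb (chr13:114770740-114772203, score 47.3, rank 1703) lies in an intron of Arl15.

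The weakly ranked E9.5 peak of Fst holds 4 CAGAC matches in the 300 bp around its centre, more than any other member peak of either list. The E10.5 peak holds 2 in this window and 1 match to GGCGCC, with 11 CAGAC matches over its whole length (4.27 per kb, a density that 88.7% of the E10.5 peaks do not exceed). The matches nearest to the centres are shown for both, with the matched bases in capitals.
Fst -29.8 kb, E9.5, minus strand, chr13:115278918-115278946: atttaaaaaacgCAGACttaggtgagctc
Fst -29.8 kb, E9.5, plus strand, chr13:115278947-115278975: tgcagatgttccCAGACtgcttcctttgc
Fst upstream, E10.5, minus strand, chr13:115249822-115249850: gggctgcgactcCAGACgcgacgaagtga
Fst upstream, E10.5, minus strand, chr13:115249863-115249891: ggaggaggggggCAGACcgcctacgtcgg
Fst upstream, E10.5, plus strand, chr13:115249848-115249875: ccccgagcgggGGCGCCgacgtaggcgg

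Bmper (ENSMUSG00000031963.7, chr9:23027520-23289646, plus strand) encodes a secreted BMP-binding protein that can act for or against BMP signalling. Its E9.5 peak chr9:23026599-23028569 (1971 bp, score 100.4, rank 207 of 2073) is centred 0.064 kb from the 5′ end, covers 565 bp of 5′ UTR and 133 bp of coding sequence, and is the only E9.5 peak besides that of Nog to span the 5′ end of a member. Of the E9.5 list 20.5% span the 5′ end of a protein-coding gene, and of the E10.5 list 36.2%. A second E9.5 peak, chr9:22769930-22771702 (score 55.3, rank 1088), lies at -257 kb. No E10.5 peak was found within 500 kb of Bmper, and the nearest was at -1273 kb. No other protein-coding gene has its 5′ end within 500 kb of that of Bmper. Bmper is thus the converse of Fst, with the peak at the promoter in the E9.5 and not in the E10.5 list.

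The Bmper promoter peak is rich in GC (77.3% in the central 300 bp) and poor in CAGAC, with 2 matches in 1971 bp, the nearer one 471 bp from the centre. GGCGCC occurs 3 times, and the match shown lies 10 bp from the centre in the 5′ UTR.
Bmper 5′ UTR, plus strand, chr9:23027581-23027608: ggcatagctccGGCGCCaggatcgtagt
Bmper upstream, minus strand, chr9:23027099-23027127: ggatcggtggctCAGACtccgcccttccc

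**Figure D3:**
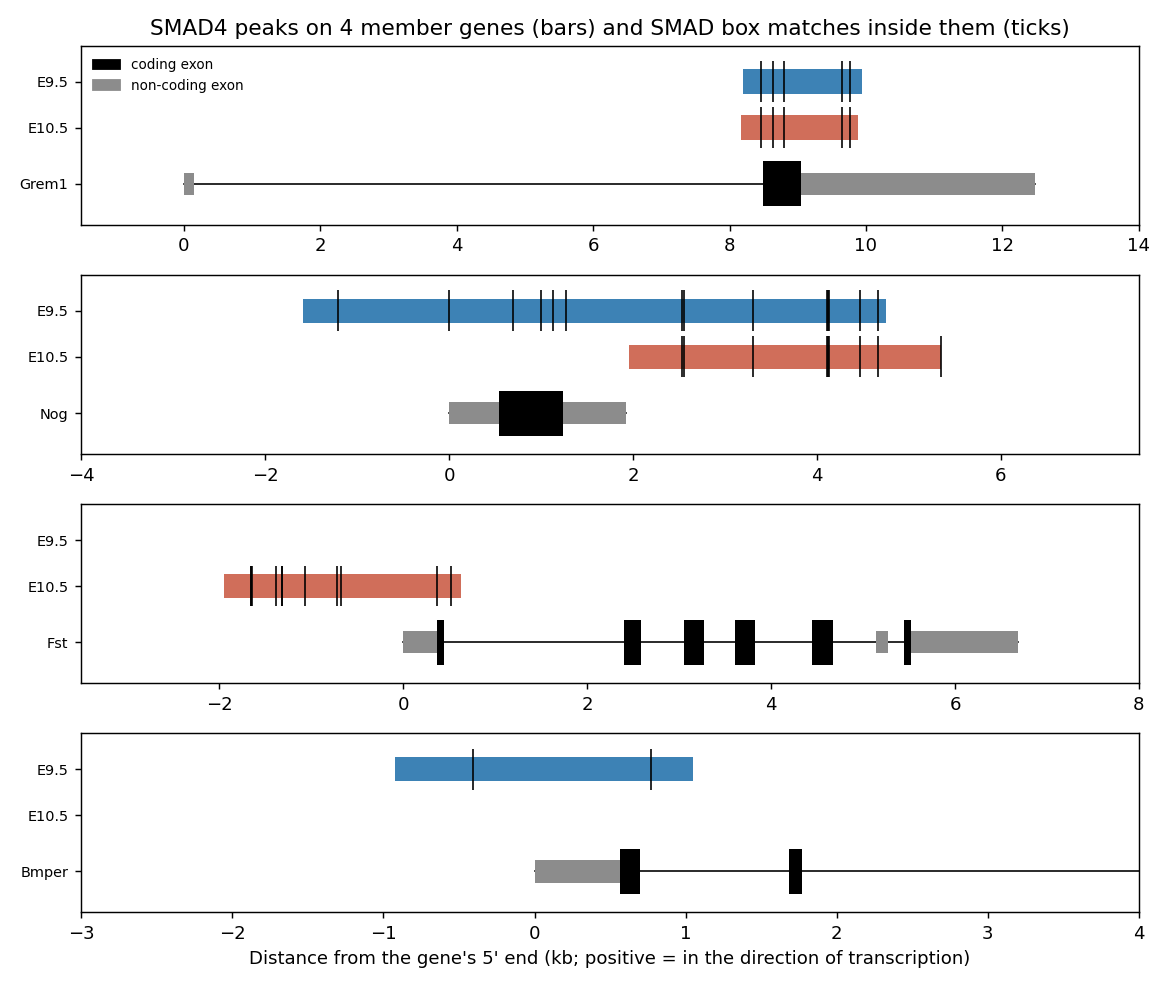
Peaks on Grem1, Nog, Fst and Bmper, drawn from the 5′ end of each gene in kb (each panel has its own scale). Blue bars are E9.5 peaks, red bars E10.5 peaks, vertical ticks CAGAC matches on either strand, black boxes coding exons and grey boxes non-coding exons of all annotated transcripts. The peaks of Grem1 coincide over the last exon, those of Nog are offset, and Fst and Bmper have a peak at the 5′ end at E10.5 and E9.5, respectively.

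Chrd (ENSMUSG00000006958.7, chr16:20733200-20742457, plus strand) encodes chordin, which binds BMPs and releases them upon cleavage. It had no E9.5 peak within 500 kb, the nearest being at -1155 kb, and 6 E10.5 peaks. Of these, 3 lay within 100 kb at -58.8, -32.2 and -24.3 kb, in Eif4g1, Fam131a and Clcn2. The peak in a coding exon of Eif4g1, chr16:20672448-20676257, had a score of 161 and rank 85, and the others had ranks 3313 and 4230. The peaks at -113 kb, -143 kb and 472 kb span the 5′ ends of Camk2n2, Vwa5b2 and Ephb3. Chrd was the nearest gene of none of them. Within 500 kb it has 20 other protein-coding genes, the most of any member.

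Smoc1 (ENSMUSG00000021136.7, chr12:82127795-82287401, plus strand) and Smoc2 (ENSMUSG00000023886.8, chr17:14416513-14541797, plus strand) encode related calcium-binding proteins of the extracellular matrix. Of the 5 E10.5 peaks of Smoc1 3 have their centre within the gene, which is 160 kb long. They are intronic at 71 kb (chr12:82197995-82199570, score 50.2, rank 5309) and 148 kb (chr12:82274521-82277276, score 60.6, rank 2983), and at the 3′ end, beyond which the peak extends, at 158 kb (chr12:82282948-82288237, rank 1441). The peak at 71 kb has 8 CAGAC matches, or 5.08 per kb, most of which lie in a short repeat at its edge. The others are intergenic, at -31.8 kb (chr12:82094725-82097350, rank 3109) and -409 kb (chr12:81717911-81719928, rank 3393). Their nearest genes by 5′ end are Slc10a1 and Slc39a9, and that of the peak at 158 kb is Slc8a3. Smoc1 is the nearest gene only of the peaks at 71 kb and 148 kb. The only E9.5 peak, chr12:82342642-82343800 (score 52.8, rank 1339), is in an intron of Slc8a3 at 215 kb and 54.4 kb from the nearest E10.5 peak.

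Around Smoc2, the interval of 500 kb contained 3 peaks, all of the E10.5 list. They lie in or near Dact2, the nearest gene of each. The best, chr17:14339491-14341857 (score 76.9, rank 1315), spans the 5′ end of Dact2 at -75.8 kb from Smoc2, and the others are at -82.7 kb (rank 2122) and -123 kb (rank 5744). Twsg1 (ENSMUSG00000024098.5, chr17:66272406-66300527, minus strand), whose product twisted gastrulation forms complexes with chordin and BMPs, likewise lacked E9.5 peaks in this interval and had 6 of E10.5 between 150 and 338 kb away. They had ranks from 1078 to 5576, and their nearest genes were Vapa, Rab31, Ndufv2 and Ddx11. Smoc2 and Twsg1 share with Chrd that no E10.5 peak within 500 kb had them as the nearest gene.

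Ordered by the best peak within 100 kb, the members at E9.5 were Grem1 (rank 3), Bmper (207), Nog (1174) and Fst (1878). At E10.5 the order was Grem1 (25), Fst (50), Chrd (85), Smoc2 (1315), Smoc1 (3109) and Nog (3603). Without replicate values it is unknown which neighbours in these orders differ beyond their spread. Only 12 protein-coding genes, Grem1 included, have a peak within 100 kb at E9.5 that ranks as high as that of Grem1, and at E10.5 there are 68. Scg5 and Arhgap11a are among these at both stages through the peaks of Grem1 itself, which lie within 100 kb of their 5′ ends as well. For Fst at E10.5 this number is 185, for Chrd 343 and for Bmper at E9.5 674. The median score of the 5 E9.5 peaks was 58.4 (whole list 56.3) and that of the 10 E10.5 peaks 63.4 (whole list 59.8). Scores of 100 or more were reached by 2 of 5 and 3 of 10, compared with 10% and 8.44% of the lists. The member peaks had a median width of 1971 bp at E9.5 (whole list 1244 bp) and 3008 bp at E10.5 (whole list 2552 bp).

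**Figure D4:**
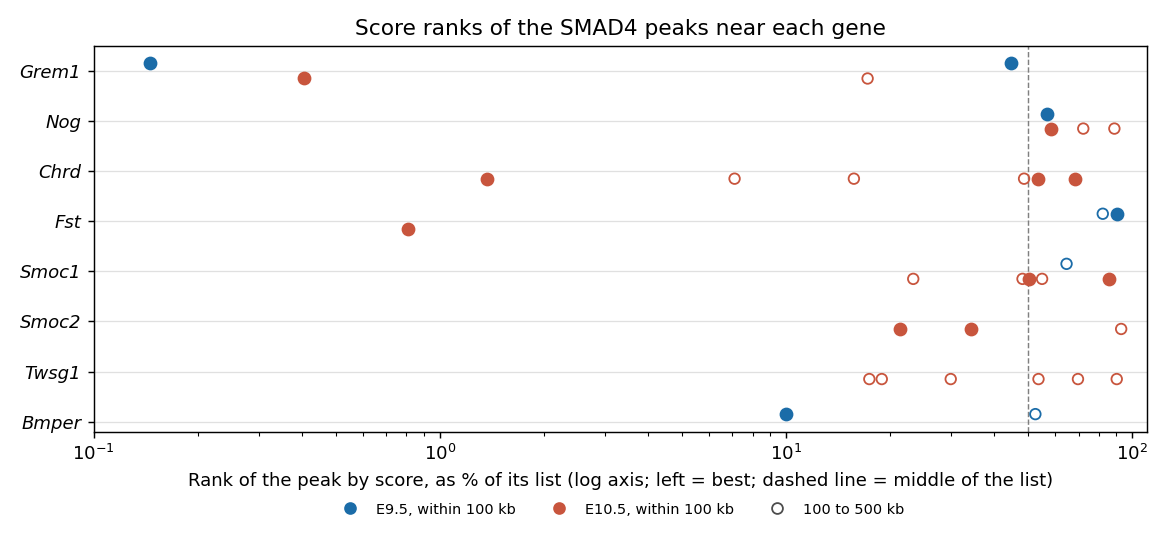
Rank of each member peak as a percentage of its list (log axis, best at the left, dashed line at the middle of the list). Filled points lie within 100 kb of the gene and open points at 100 to 500 kb, at E9.5 (blue) and E10.5 (red). The best peak of Grem1 at each stage and that of Fst at E10.5 are among the best 1% of their lists, with 0.145%, 0.404% and 0.808%. The best peak of Chrd follows with 1.37%. The other peaks of Grem1 are at 44.6% (E9.5) and 17.2% (E10.5).

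In the 300 bp around the centre, 2 of the 5 peaks within 100 kb at E9.5 held CAGAC, while 60.6% of the whole E9.5 list held it. At E10.5, 6 of 10 peaks held it, compared with 53.2% of the list. Both strands were searched. CAGACC, which contains CAGAC, was present in 1 of 5 and 2 of 10 peaks (21% and 19.7% of the lists), and GGCGCC, which reads the same on either strand, in 1 of 5 and 1 of 10 (12.6% and 13.1%). The palindrome GTCTAGAC was in 0 of these peaks (1.21% and 0.42% of the lists). A composite of GGCGNC followed after 5 bases by GTCT was in 0 as well (0.338% and 0.307%). Over the whole peak, each of the 5 and each of the 10 held at least 1 CAGAC, as did 94% and 98.2% of the lists. A match is a description of the DNA and says nothing about where within a peak SMAD4 is bound.

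In the promoters, taken as the 250 bases before to 50 after the 5′ end on mm9, CAGAC occurred 2 times in Grem1 and in Twsg1, 1 time in Nog and in Chrd, and not in Fst, Bmper, Smoc1 or Smoc2. Of all protein-coding promoters 48.4% held it. Of the 3 members with a peak that spans the 5′ end at either stage, Nog has 1 match and Fst and Bmper have 0.

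The other genes of the pathway were counted in lists of fixed membership. Of 21 other extracellular BMP and activin modulators, 5 had an E9.5 peak within 100 kb, 11 an E10.5 peak and 3 both, compared with the 20.5%, 52.9% and 14.6% of all genes. The 3 genes were Fstl1, Htra1 and Rgma, and in none of them did the best peak overlap a peak of the other stage. The best peaks of Fstl1, which encodes a follistatin-like protein, had ranks 1593 (E9.5) and 5006 (E10.5). Those of Htra1, a secreted protease, had ranks 917 and 519, and those of Rgma, a BMP co-receptor, 715 and 272. The best E10.5 peaks of Fstl1 and Htra1 lie nearer to another gene, Lrrc58 and Plekha1, respectively. Of 14 ligand genes, 3 had a peak at E9.5 and 7 at E10.5, of 7 receptor genes (with Bambi) 3 and 5, of 8 genes for SMADs and SMURFs 4 and 7, and of 10 target genes 5 and 8. Peaks of both stages were found for 3 ligand genes, 2 receptor genes, 4 genes for SMADs and SMURFs, and 5 target genes. These lists were not compared by a test.

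Genes most like Grem1 were sought among the 197 genes with 2 E9.5 peaks and 1 E10.5 peak within 100 kb, by the summed difference in the percentile of the best peak over the 2 stages. Cldn11 came closest, with ranks 1 and 1 and a summed difference of 0.485 percentage points, through peaks whose nearest gene is Skil. Fkbp1b and Mfsd2b followed with ranks 47 and 14 and 2.3 percentage points, through peaks whose nearest gene is Atad2b. Unlike that of Grem1, the best peaks of these genes thus lie nearer to another gene.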

How the data were processed

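The deposited peak lists were analysed, 1 per stage. Per the methods of the study, the authors trimmed reads to 63 bp, aligned them to mm9 with Bowtie 1.1.0 (unique matches, at most 2 mismatches), called peaks in each replicate with MACS 1.4 against the input of the same sample at a p-value threshold of 0.01, and merged the replicates with MSPC, which drops regions called in a single replicate and keeps the best p-value of a merged region. The deposited score carries no stated unit. Input samples have no values of their own here.

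Gene ends, exons and protein-coding status were taken from GENCODE vM1 (NCBIM37, the same build), with 1 entry per symbol on chromosomes 1 to 19 and X. Coordinates are 1-based. Sequences were read from the mm9 genome. Python 3.11.15, NumPy 2.4.6, pandas 2.3.3, pysam 0.24.0 and Matplotlib 3.10.9 were used, and the overlap rules were tested on simulated data. No tests were made, since the stages have 1 list each. Named items were all members with their nearest and best peaks, the whole Grem1 region, the overlapping pairs, other modulators with peaks of both stages, and 3 genes like Grem1. The members and lists were chosen with earlier results of these data known. Alternatives covered stricter and equally long lists, distances, overlap rules and sequence windows.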

Additional observations from a re-analysis of the deposited data

How the results depend on the processing

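No paired analysis was possible because both replicates of a stage had been merged into 1 list before deposit, and no replicate was left out for the same reason. Of 95 values under other settings, 55 were within 1.5 times the reported count and 40 were not. The settings that moved counts kept fewer peaks or overlaps, or searched more bases per peak. With scores of 100 or more in both lists, the members with a peak within 100 kb fell from 4 to 2 at E9.5 (Grem1 and Bmper), from 6 to 3 at E10.5 (Grem1, Fst and Chrd) and from 3 to 1 at both stages (Grem1). The peaks fell from 5 to 2 and from 10 to 3. Within 500 kb these counts of members were 2, 3 and 1, and the peaks numbered 2 and 4. The whole lists kept 208 and 522 peaks at this cut (10% and 8.44%). Shares of all genes are not given under these other settings, so the counts of members cannot be compared with them. Each stage kept 1 peak near Grem1. With the E10.5 list shortened to the length of the E9.5 list, the E10.5 peaks numbered 4 within 100 kb and 11 within 500 kb. The members with an E10.5 peak within 100 kb then fell from 6 to 4, the same number as at E9.5. Those with peaks of both stages fell from 3 to 2. Within 500 kb, 6 members kept an E10.5 peak and 3 had both. Within 50 kb there were 6 E10.5 peaks. Counting only peaks whose nearest protein-coding gene is the member, 4 members and 6 peaks remained at E10.5 within 500 kb. The overlapping peaks fell from 2 to 1 per stage, leaving Grem1 alone, with scores of 100 or more, with equally long lists, with a reciprocal overlap of 50% and with centres within 250 bp. Over the whole peak, CAGAC was present in 5 E9.5 and 10 E10.5 peaks (94% and 98.2% of the lists). CAGACC was present in 4 and 7 (58.2% and 79.5% of the lists), and GGCGCC in 2 and 4 (26.1% and 44%). In 500 bp, GGCGCC was in 2 E10.5 peaks (19.5% of the list). The setting by nearest gene within 100 kb was added after the data had been seen.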
